A study of Mus musculus with 6 samples.

Results

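The 37 genes described here encode enzymes and carriers with which mitochondria burn fuels other than glucose. They are 16 genes of branched-chain amino acid breakdown, 3 of ketone body use and 18 of fatty acid β-oxidation. They were chosen by name, with earlier results of these data known, and all 37 were found among the 21526 gene symbols counted. RNA was measured in epithelial cells of the mouse gastric corpus. Normal stomach came from wild-type mice (3 libraries). Yap-activated gastric cancer came from mice carrying CluCreERT2, a tamoxifen-inducible Cre recombinase under control of the Clu gene, R26rtTA, a doxycycline-dependent activator at Rosa26, and HA-Yap+, a tagged Yap transgene (3 libraries). Both groups received tamoxifen, 2 mg daily by injection for 5 days, followed by 14 days of doxycycline in the food, so the drugs were shared and the 3 alleles were not. The sources used here name no strain, age or separate animal for each library, and the p-values rest on the variation among the 6 libraries alone, which may be technical. The comparison asks which fuel pathways differ in transcript level between the normal corpus and corpus tissue with active Yap, the coactivator restrained by the Hippo pathway.

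Leucine, isoleucine and valine are first transaminated, and their keto acids are then decarboxylated by the branched-chain keto acid dehydrogenase complex. Each carbon skeleton follows its own short series of mitochondrial enzymes, which ends in acetyl-CoA, acetoacetate or propionyl-CoA. Fatty acids enter the mitochondrion through the carnitine shuttle and are shortened in cycles by acyl-CoA dehydrogenases, hydratases, dehydrogenases and thiolases, with electrons leaving through the electron transfer flavoprotein. Ketone bodies, made mainly in liver, are converted back to acetyl-CoA in tissues that use them as fuel. Acid-secreting parietal cells of the gastric corpus are among the cells richest in mitochondria.

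Of the 37 genes, 35 fell in Yap-activated tissue, none rose, and the carnitine-acylcarnitine carrier gene Slc25a20 and the enoyl-CoA isomerase gene Eci2 did not pass the test (edgeR quasi-likelihood test, Benjamini-Hochberg adjusted p under 0.05 over all 14600 genes tested). Of all genes tested, 59.5% were called, 29.7% lower and 29.8% higher. Levels are given as CPM, counts per total library count on the usual scale, after TMM scaling of the libraries. The 37 genes summed to 7112 ± 687 CPM in Normal and 1548 ± 116 CPM in Yap-activated libraries (SD, n = 3), or 21.8% of the Normal sum. Their median log2 fold change was -2.18, against 0.01 over all genes tested. With library totals alone or with scaling to other mitochondrial genes, 33 fell, Slc25a20 and Eci2 were called higher, and Acads and Echs1 did not pass.

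The falls differed in depth between the fuels. Each gene was counted under 1 fuel, although enzymes such as Acat1 serve more than 1. All 16 branched-chain genes fell, at a median log2 fold change of -2.97 (7.81-fold lower) and a range from -1.95 to -5.26. The 3 ketone genes fell at a median of -2.76. Of the 18 fatty acid genes 16 fell. Over all 18 the median was -1.31 (2.49-fold lower) and the range was from -0.07 to -2.25. By over 4-fold, 15 of 16 branched-chain genes, 2 of 3 ketone genes and 3 of 18 fatty acid genes were lower, compared with 6.85% of all genes tested. Against a 2-fold change as the null, all 16 branched-chain genes and all 3 ketone genes still passed and 8 fatty acid genes did, where 9.96% of all genes passed as lower. The branched-chain median minus the fatty acid median lay between -1.68 and -1.64 on the log2 scale in all 18 alternative settings. Other scalings move all genes nearly alike, so they could hardly change this difference. The 2-fold null and the non-robust dispersions reuse the same fold changes. Genes of 1 pathway are not replicates, and the difference between pathways was not tested.

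**Figure D1:**
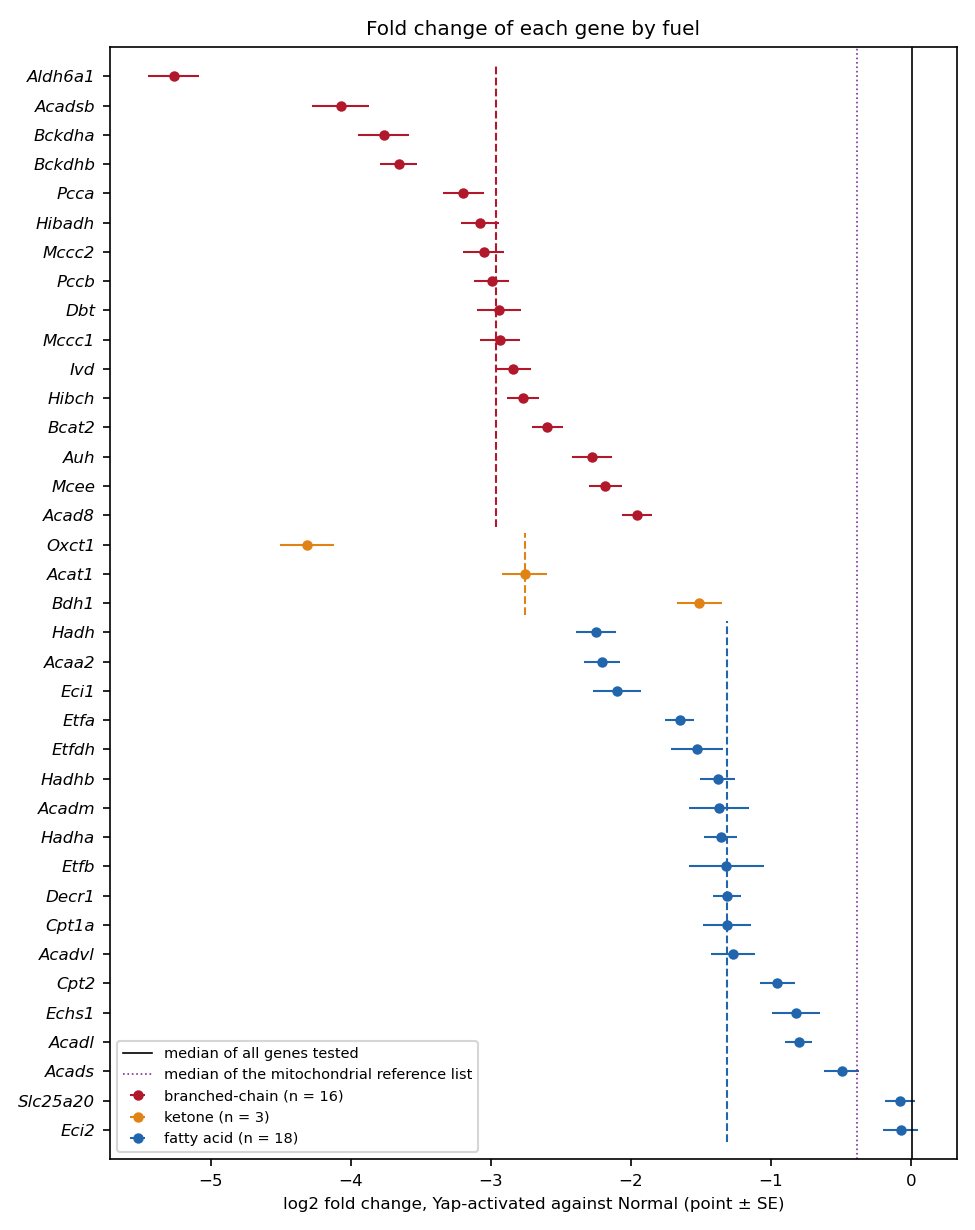
Log2 fold change of each of the 37 genes in Yap-activated against Normal libraries (x axis; points with SE, 3 libraries a group), ordered within branched-chain, ketone and fatty acid genes. Dashed lines mark each fuel's median, at -2.97, -2.76 and -1.31, the solid line the median of all genes tested (0.01) and the dotted line that of 21 mitochondrial reference genes (-0.38), and with library totals alone or scaled to the reference list Slc25a20, Eci2 and Acads lie above 0.

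All 3 Normal libraries stood above all 3 Yap-activated libraries for 35 of 37 genes, as for 34.4% of all genes tested. Over all 37 genes, the largest ratio between the highest and the lowest library of one group was 1.68, at Acadm. Normal replicate 3 was the highest Normal library for 27 of 37 genes and for 13 of 16 branched-chain genes, and Yap-activated replicate 1 was the lowest of its group for 25 of 37. Normal replicate 3 also had the highest sum of 14 parietal cell marker genes, 33879 CPM against 25312 and 26570 CPM. The part of this in the levels was not tested. Without Normal replicate 3 or any other single library, the same count of 35 genes was called lower.

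**Figure D2:**
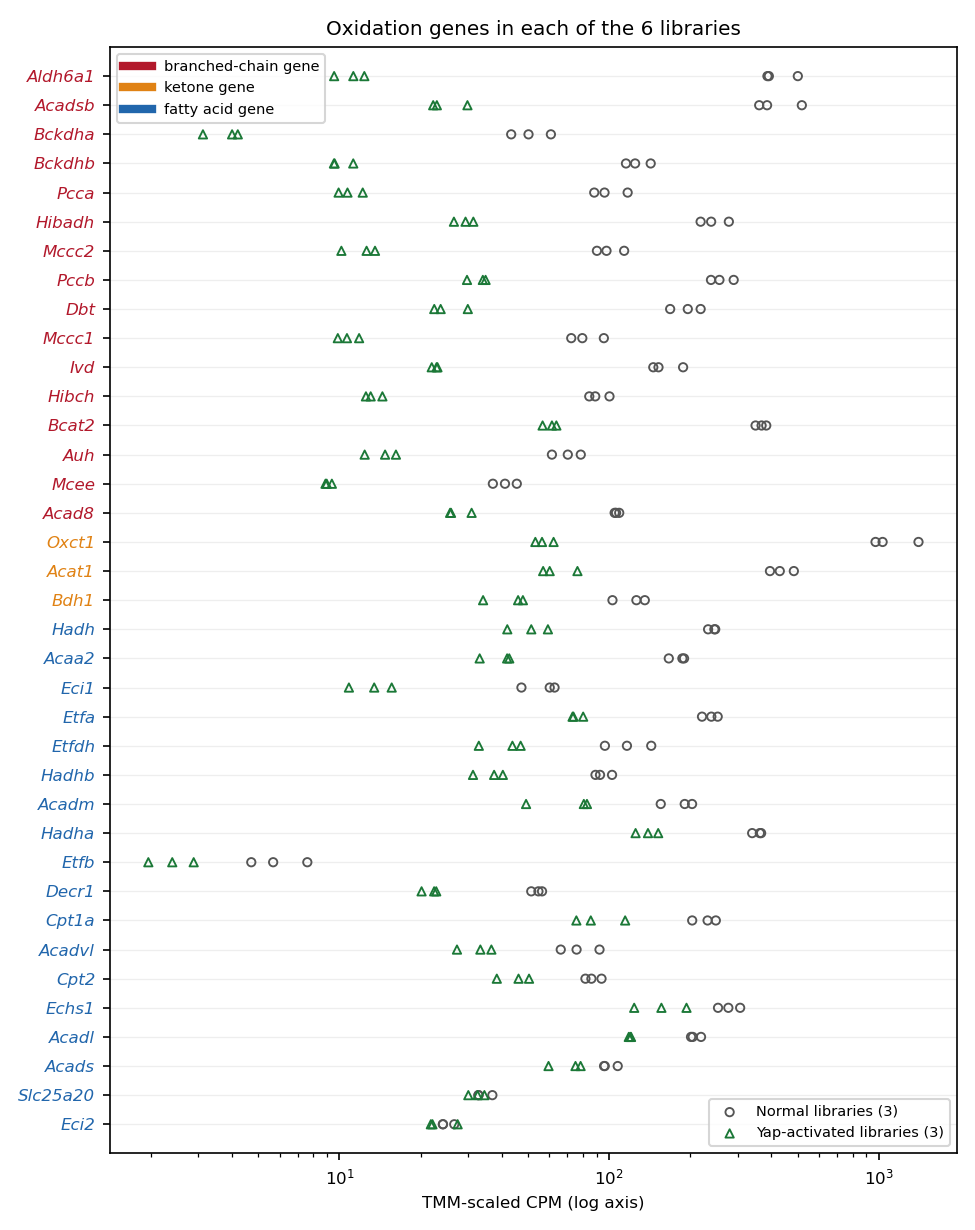
TMM-scaled CPM of the 37 genes (y axis, coloured by fuel) in each library on a log axis, circles for the 3 Normal and triangles for the 3 Yap-activated libraries. Circles and triangles are separate for every gene except Slc25a20 and Eci2, and the gap is widest at Aldh6a1, whose lowest Normal library lay 31.2-fold above its highest Yap-activated library.

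Aldh6a1 encodes methylmalonate semialdehyde dehydrogenase, the last enzyme specific to valine breakdown, which also acts on thymine products. It lies on the minus strand at chr12:84430717-84451004 (GRCm38). It had 391, 386 and 501 CPM in Normal libraries and 9.56, 11.3 and 12.4 CPM in Yap-activated libraries. The groups were far apart and each was narrow. Its log2 fold change of -5.26 (SE 0.18, adjusted p = 8.42e-07) was the largest fall among the 37 genes, a 38.4-fold difference. Of its exonic bases, 18.6% are shared with Bbof1 on the other strand, which stood at 2.54 and 1.25 CPM.

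Oxct1 encodes succinyl-CoA:3-ketoacid CoA transferase, the enzyme that commits acetoacetate to oxidation and is scarce in liver. It lies on the plus strand at chr15:4026383-4155344. It had 973, 1033 and 1404 CPM in Normal libraries and 56.4, 62.2 and 53.3 CPM in Yap-activated libraries. Every Normal library stood at least 15.6-fold above every Yap-activated one. The log2 fold change was -4.31 (SE 0.19, adjusted p = 2.52e-06). Acadsb, the short/branched-chain acyl-CoA dehydrogenase of isoleucine breakdown, lies at chr7:131410601-131448944 on the plus strand. It had 360, 385 and 518 CPM in Normal and 22.3, 23.0 and 29.8 CPM in Yap-activated libraries, with no overlap. This is a log2 fold change of -4.07 (SE 0.20, adjusted p = 3.68e-06).

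The sequences before the genes with the deepest falls, Aldh6a1 and Oxct1, and those between 2 pairs of genes that start back to back are shown because the pairs put neighbours with like and unlike changes side by side. They are from RefSeq on GRCm38.p6, 5′ to 3′ on the strand of the gene named, and stop at or shortly before the GENCODE start of the gene. Capitals mark GGAATG or its reverse complement CATTCC, the core letters bound by the TEAD partners of Yap. The stretch for Aldh6a1 is chr12:84451025-84451274 on the minus strand, for Oxct1 chr15:4026178-4026382 on the plus strand, between Hadha and Hadhb chr5:30155163-30155247 on the plus strand, and between Ikzf5 and Acadsb chr7:131410522-131410600 on the plus strand.
Aldh6a1: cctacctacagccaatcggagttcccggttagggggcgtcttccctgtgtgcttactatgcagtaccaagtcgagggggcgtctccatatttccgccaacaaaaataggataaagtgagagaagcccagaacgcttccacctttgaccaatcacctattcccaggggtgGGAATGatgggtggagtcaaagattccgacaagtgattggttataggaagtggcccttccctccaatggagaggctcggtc
Oxct1: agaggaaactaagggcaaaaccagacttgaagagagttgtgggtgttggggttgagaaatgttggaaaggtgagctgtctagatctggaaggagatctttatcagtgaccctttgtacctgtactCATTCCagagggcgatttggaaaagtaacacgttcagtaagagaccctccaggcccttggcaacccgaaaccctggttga
Hadha-Hadhb: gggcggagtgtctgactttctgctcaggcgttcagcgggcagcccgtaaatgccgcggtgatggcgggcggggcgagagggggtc
Ikzf5-Acadsb: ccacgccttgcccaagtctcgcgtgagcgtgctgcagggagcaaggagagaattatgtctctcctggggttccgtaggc

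The TEAD letters stood in 1 place each before Aldh6a1 and Oxct1, 101 and 80 bases before the gene's start, and in neither stretch between back-to-back genes. In RefSeq windows of 300 bases, from 250 before to 50 after the start, GGAATG was found on either strand for 6 of the 33 genes with a window (Aldh6a1, Cpt1a, Etfb, Oxct1, Pccb and Slc25a20), or 18.2%, against 12.1% of 11472 windows of tested genes. TCAAGGTCA, the estrogen-related receptor element, was in none of the 33 and in 0.262% of all windows, and the spaced direct repeat bound by PPAR and its partner in none and 0.0610%. The ETS letters CCGGAAG were in 3 of 33 against 16.6%, and the nuclear respiratory factor element in 4 of 33 against 9.41%. No match of 1 motif overlapped a match of another in these genes. These are letter matches in short windows and say nothing of binding. Dbt, Acat1, Acaa2 and Decr1 had no window. Window starts are RefSeq starts, which lay 967, 733 and 32952 bases from the GENCODE start at Cpt1a, Etfdh and Eci2.

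The entry steps of branched-chain breakdown fell together. Bcat2, the mitochondrial aminotransferase, had 383, 349 and 368 CPM in Normal and 61.4, 63.7 and 56.7 CPM in Yap-activated libraries, 6.05-fold lower. Bckdha and Bckdhb, the α and β chains of the decarboxylase of the keto acid dehydrogenase complex, fell more. Bckdha had 43.3, 50.2 and 60.8 CPM in Normal and 3.12, 4.20 and 3.999 CPM in Yap-activated libraries (log2 fold change -3.76, SE 0.18, adjusted p = 3.35e-06). Bckdhb had 125, 115 and 143 CPM against 11.3, 9.54 and 9.60 CPM (log2 fold change -3.66, SE 0.13, adjusted p = 1.03e-06). For both, the lowest Normal library was 10.3-fold above the highest Yap-activated library. Dbt, the transacylase core of the complex, fell by 2.94 on the log2 scale. Of the exonic bases of Bckdha, 61.7% are shared with B3gnt8 on the other strand, which stood at 4.65 and 2.36 CPM.

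The leucine branch fell at 4 of 4 genes, with log2 fold changes of -2.84 for Ivd (isovaleryl-CoA dehydrogenase), -2.93 and -3.05 for Mccc1 and Mccc2 (the chains of methylcrotonyl-CoA carboxylase) and -2.27 for Auh (methylglutaconyl-CoA hydratase). Among the genes counted as branched-chain, those of valine breakdown upstream of Aldh6a1 fell less than it did. Log2 fold changes were -1.95 for Acad8, the isobutyryl-CoA dehydrogenase, -2.77 for Hibch, a hydrolase, and -3.07 for Hibadh, a dehydrogenase. Enzymes of this route that were counted under another fuel are left out here. Acad8 was the branched-chain gene with the smallest fall, from 107 ± 2.13 to 27.5 ± 2.94 CPM (SD, n = 3). Propionyl-CoA, which valine and isoleucine share as a product, is handled by Pcca and Pccb, the chains of propionyl-CoA carboxylase, and by the epimerase Mcee. These 3 genes fell, at log2 fold changes of -3.19, -2.99 and -2.18.

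Of the 2 other ketone genes, Acat1, the mitochondrial acetoacetyl-CoA thiolase that also closes isoleucine breakdown, had 429, 395 and 484 CPM in Normal and 56.9, 76.3 and 60.2 CPM in Yap-activated libraries (log2 fold change -2.76, SE 0.16). Bdh1, the 3-hydroxybutyrate dehydrogenase, kept more of its level, with 103, 126 and 136 CPM against 34.1, 47.9 and 46.0 CPM (log2 fold change -1.51, SE 0.16, adjusted p = 1.39e-04). The groups did not overlap at either gene.

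The carnitine shuttle had the smallest median change of the 10 groups of steps, -0.95 on the log2 scale. Slc25a20, which carries acylcarnitines across the inner membrane, had 36.9, 32.8 and 32.8 CPM in Normal and 32.5, 30.1 and 34.5 CPM in Yap-activated libraries. These ranges overlapped, at a log2 fold change of -0.08 (SE 0.10, adjusted p = 0.548). Relative to library totals alone it was at 0.42 (adjusted p = 0.00812), and relative to the mitochondrial reference list at 0.44 (adjusted p = 0.0197). Cpt1a, the outer-membrane carnitine palmitoyltransferase that sets the rate of entry, fell from 203, 232 and 249 CPM to 75.6, 85.5 and 115 CPM (log2 fold change -1.31, SE 0.17). Cpt2, its inner-membrane partner, fell by 0.95 (SE 0.12).

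Falls of the straight-chain acyl-CoA dehydrogenases were small and unequal. Acadl (long chain) had 204, 201 and 219 CPM in Normal and 121, 118 and 120 CPM in Yap-activated libraries, 1.74-fold lower with groups well apart. Acadm (medium chain) and Acadvl (very long chain) fell, at log2 fold changes of -1.37 and -1.27. Acadm was uneven in Yap-activated libraries, at 82.8, 49.2 and 80.6 CPM. Acads (short chain) had 108, 96.3 and 95.8 CPM in Normal and 59.6, 75.0 and 78.4 CPM in Yap-activated libraries, at a log2 fold change of -0.49 (SE 0.13, adjusted p = 0.0104) that became 0.01 with library totals alone and 0.02 relative to the mitochondrial reference list. Acadvl shares 42.9% of its exonic bases with Dvl2 on the other strand, which stood at 14.1 and 14.9 CPM.

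Later in the cycle, Hadh and Acaa2 had the largest falls of the 5 genes. Hadh, the short-chain hydroxyacyl-CoA dehydrogenase, had 233, 246 and 247 CPM in Normal and 41.9, 59.3 and 51.4 CPM in Yap-activated libraries (log2 fold change -2.25, SE 0.14, adjusted p = 1.08e-05). Acaa2, the thiolase of shorter chains, fell by 2.21 (SE 0.13). Hadha and Hadhb, the α and β chains of the trifunctional protein for long chains, fell, at log2 fold changes of -1.36 and -1.38. Echs1, the short-chain hydratase, fell from 306, 253 and 277 CPM to 124, 194 and 156 CPM (log2 fold change -0.82, SE 0.17, adjusted p = 0.00438). With library totals alone or relative to the reference list, Echs1 was at -0.32 and -0.31 and did not pass.

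Among the auxiliary enzymes that unsaturated fatty acids need, the isomerases Eci1 and Eci2 differed. Eci1 had 47.3, 60.2 and 62.8 CPM in Normal and 15.6, 13.5 and 10.8 CPM in Yap-activated libraries, 4.28-fold lower. Eci2 had 26.6, 24.2 and 24.2 CPM against 22.1, 21.8 and 27.4 CPM, with overlapping groups (log2 fold change -0.07, SE 0.13, adjusted p = 0.649). Eci2 was at 0.43 with library totals alone and at 0.45 relative to the reference list, past the threshold in both (adjusted p = 0.0216 and 0.0366). Decr1, the dienoyl-CoA reductase, fell by 1.31. The electron transfer flavoprotein genes Etfa and Etfb and its dehydrogenase Etfdh fell, at log2 fold changes of -1.65, -1.32 and -1.52. Etfb was counted at only 7.60, 5.68 and 4.71 CPM in Normal libraries and 2.88, 1.96 and 2.399 CPM in Yap-activated ones. It shares 53.0% of its exonic bases on the same strand with Gm45233, which has no row in the table, and how reads in the shared part were counted is not known.

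For most of 5 pairs of subunits of 1 enzyme, the ratios overlapped between the groups. Per kilobase of mRNA, the level of Hadha was 1.92 ± 0.134 times that of Hadhb in Normal and 1.95 ± 0.0786 times in Yap-activated libraries (SD, n = 3). Bckdha to Bckdhb was 0.312 ± 0.0376 and 0.293 ± 0.0683, and Mccc1 to Mccc2 was 0.708 ± 0.0169 and 0.777 ± 0.0845. Etfa to Etfb varied widely among libraries, at 26.5 ± 7.23 and 20.8 ± 5.03. Pcca to Pccb went from 0.343 ± 0.0170 to 0.298 ± 0.0229, the only one of the 5 pairs whose ratios did not overlap between the groups. These ratios were not tested.

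Gene neighbours outside the 37 did not share the falls to the same depth. Hadha and Hadhb start 86 bases apart on opposite strands, and both fell alike. A protein-coding gene that is none of the 37 starts up to 1000 bases before 5 genes, on the other strand, and all 5 are branched-chain genes. Other-strand genes that start inside one of the 37 were not counted, and the share over all genes was not computed. Acadsb starts 80 bases from Ikzf5, a zinc finger gene, which had a log2 fold change of 0.27 (adjusted p = 0.333) beside the -4.07 of Acadsb. Bckdha starts 183 bases from Exosc5, an exosome subunit gene that fell by 0.87, and Aldh6a1 418 bases from Lin52, which fell by 0.68. Mcee and Acad8 start 339 and 144 bases from Mphosph10 and Thyn1, which were at 0.23 and -0.03 and did not pass. With library totals alone and relative to the reference list, Thyn1 (0.47 and 0.48), Mphosph10 (0.72 and 0.73) and Ikzf5 (0.76 and 0.78) were called higher, and the call of Lin52 was lost (-0.19 and -0.17). Mphosph10 also passed as higher without Yap-activated replicate 3 (0.41, adjusted p = 0.0164). These neighbours were picked by position after the values were known.

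Per length, the order of levels within the 37 genes changed. In Normal libraries Oxct1 was the highest at 322 ± 66.2 CPM per kilobase of mRNA, followed by Bcat2 at 207 ± 9.44, Echs1 at 179 ± 16.96 and Etfa at 171 ± 11.4 (SD, n = 3). The gap from Echs1 to Etfa was within their spread. Oxct1 stood 16th of 37 in Yap-activated libraries, at 16.2 ± 1.29 CPM per kilobase. There the highest was Echs1 at 101 ± 22.4, then Acadl at 62.4 ± 0.603 and Etfa at 54.4 ± 2.77 CPM per kilobase. Of the 10 genes with the highest per-length level, 4 were fatty acid genes in Normal and 9 in Yap-activated libraries, with Bcat2 as the other. Of the 10 lowest, 4 were branched-chain genes in Normal and 9 in Yap-activated libraries.

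**Figure D3:**
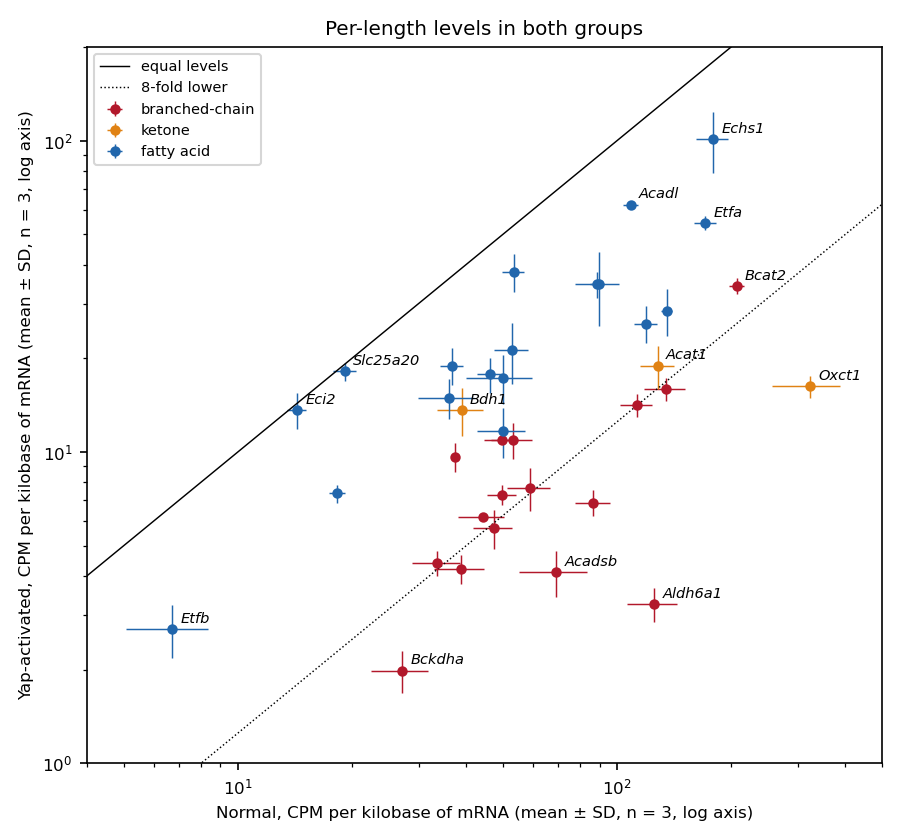
Level per kilobase of mRNA in Normal (x axis) and Yap-activated (y axis) libraries, both on log axes, as mean and SD of 3 libraries for each gene, coloured by fuel, with a solid line at equal levels and a dotted line at an 8-fold lower level. Oxct1 moves from the highest level in Normal (322 CPM per kilobase) to 16.2, while Slc25a20 and Eci2 lie near the line of equal levels.

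Markers of corpus cell types moved along with these genes. All 14 parietal cell markers in the table fell, and their sum went from between 25312 and 33879 CPM in Normal to between 1011 and 1303 CPM in Yap-activated libraries, 3.92% of the Normal mean, with none at 0. All 6 tested chief cell markers fell and their sum was 0.375% of Normal (90912 to 141642 CPM, then 348 to 570 CPM), with Lipf and Cpa1 at 0 in every library. Of 7 surface mucous markers 5 fell and 1 rose (48416 to 55520 CPM, then 2513 to 3248 CPM). Endothelial markers fell at 7 of 9 genes (198 to 217 CPM, then 49.6 to 88.9 CPM). Leukocyte markers rose at 6 of 10 tested genes, from between 121 and 129 CPM to between 147 and 797 CPM. In RNA of all cells together, fewer cells of a type and less RNA per cell cannot be told apart, and the part of these shifts in the falls of the oxidation genes was not tested. Enteroendocrine markers fell at 4 of 7 genes and rose at 1, and their sum went from between 602 and 818 CPM to between 50.5 and 61.3 CPM, 7.49% of the Normal mean. Of 5 mucous neck markers 1 fell and 3 rose, with sums from 1976 to 3271 CPM and from 1825 to 2965 CPM. Of 9 fibroblast genes 4 fell and 1 rose, and of 8 smooth muscle genes 3 fell. Of 8 tested forestomach genes 1 rose, with sums from 1.04 to 42.1 CPM in Normal and from 55.7 to 83.4 CPM in Yap-activated libraries. Normal replicate 2 held the 42.1 CPM. Of 2 tested pancreatic acinar genes 1 fell. Of 4 tested adipocyte markers 1 fell and 1 rose, and Adipoq, Plin1 and Lep were each under 0.1 CPM on average in both groups.

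The mitochondrial reference list, 21 genes of protein import, porins, chaperones, proteases, prohibitins and membrane dynamics, kept more of its level. Of these, 10 fell, 4 rose and 7 did not pass, with a median of -0.38 on the log2 scale. The sum was 70.2% of the Normal mean, against 11.2% for the branched-chain, 9.71% for the ketone and 41.4% for the fatty acid genes. Oxct1 held 1136 of the 1694 CPM of the ketone sum in Normal, while Acat1 and Bdh1 kept 14.8% and 35.1% of their levels. Log2 fold changes were -1.38 for Immt, of the cristae organising system, -0.78 for Mfn1, a fusion protein gene, and 0.44 and 0.45 for Tomm20 and Timm23, of the import machinery. The Tomm20 call was lost when Normal replicate 2 or 3 was left out (adjusted p = 0.0629 and 0.0554), and the Timm23 call when any of the 3 Normal libraries (0.0604, 0.0837 and 0.0933) or Yap-activated replicate 2 (0.0844) was. Vdac2, a porin gene, was at -0.21 and did not pass (adjusted p = 0.115), but was called lower by DESeq2 (adjusted p = 0.0432), and was at 0.28 with library totals alone and at 0.30 (adjusted p = 0.0487) relative to the list itself.

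**Figure D4:**
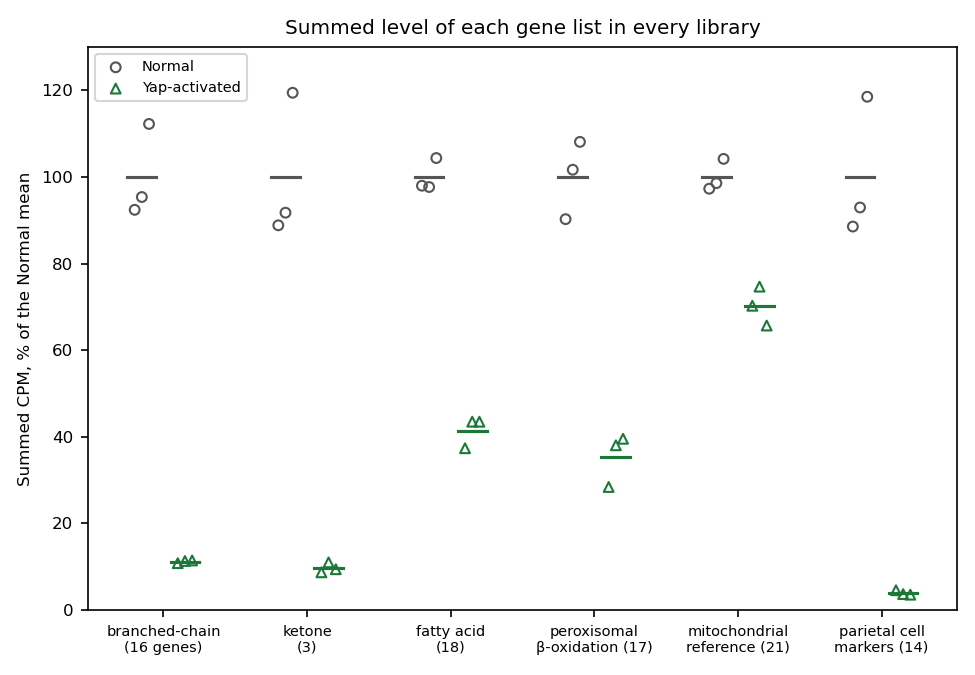
Summed CPM of 6 gene lists in each library as percent of the Normal mean (y axis), circles for Normal and triangles for Yap-activated libraries, bars for the means of 3. In Yap-activated libraries the branched-chain (11.2%) and ketone (9.71%) sums lie between the parietal cell markers (3.92%) and the fatty acid genes (41.4%). The mitochondrial reference genes are highest at 70.2%, and the peroxisomal list (35.3%) includes Phyh, a gene of α-oxidation. Oxct1 holds 1136 of the 1694 CPM of the ketone sum in Normal.

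The rest of branched-chain and propionate metabolism fell less deeply. Of 11 tested genes 8 fell and none rose, at a median log2 fold change of -1.29. Bckdk, the kinase that switches the keto acid dehydrogenase off, fell by 1.61 (SE 0.09), and Ppm1k, the phosphatase that switches it on, fell by 0.92 (SE 0.15), a call lost relative to the reference list (adjusted p = 0.0544). Hsd17b10, a dehydrogenase of isoleucine breakdown, fell by 1.80, and Dld, the lipoamide dehydrogenase shared with other keto acid complexes, fell by 1.29. Slc25a44, a mitochondrial branched-chain amino acid carrier named here after its values were seen, fell by 1.11. Bcat1, the cytosolic aminotransferase, was low in both groups at 0.403 ± 0.0418 and 0.346 ± 0.0556 CPM (SD, n = 3; adjusted p = 0.578).

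Of 8 tested genes of ketone synthesis and transport, 3 fell and 3 rose. Slc16a7, a monocarboxylate carrier that takes up ketone bodies, fell from 344 ± 92.0 to 2.01 ± 0.920 CPM, while Slc16a1, a related carrier named after its values were seen, stood at 103 ± 15.02 and 102 ± 11.7 CPM (SD, n = 3). Slc16a1 was called higher with library totals alone and relative to the reference list, at 0.47 and 0.48. Bdh2, a cytosolic dehydrogenase, rose from 0.799 to 7.68 CPM. Oxct2b, a testis relative of Oxct1, was called higher but stayed at 0.326 CPM, so reads of this copy are few beside the 57.3 CPM of Oxct1.

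Upstream of the shuttle, 11 of 21 genes of fatty acid uptake, activation and carnitine supply fell and 3 rose. Fabp3, a fatty acid binding protein of heart and muscle, went from 86.5 ± 17.1 to 0.173 ± 0.0593 CPM (SD, n = 3), and Crat, the carnitine acetyltransferase, fell by 2.51 on the log2 scale. Fabp5, the binding protein with the highest count in this list, fell by 2.57. Acsl1, Cd36 and Acacb were named after their values were seen. Log2 fold changes were -3.81 for Acsl1, the long-chain acyl-CoA synthetase, -4.60 for Cd36, a fatty acid translocase, and -6.26 for Acacb, whose product malonyl-CoA inhibits carnitine palmitoyltransferase. Acsl4, a synthetase that prefers arachidonate, rose by 1.25. Cpt1c, the brain-type palmitoyltransferase, rose from 2.77 to 9.28 CPM, and Cpt1b, the muscle type, stayed under 1 CPM on average and passed as higher only with library totals alone or relative to the reference list (1.21 and 1.22).

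Of 13 other mitochondrial acyl-CoA enzymes 11 fell and 2 rose. Log2 fold changes were -1.42 for Ech1, a dienoyl-CoA isomerase, -2.68 for Echdc3, and -1.96 for Acss1, the mitochondrial acetyl-CoA synthetase. Acot9, an acyl-CoA thioesterase, rose from 19.4 ± 1.58 to 84.0 ± 8.06 CPM (SD, n = 3), and Acsm3 rose by 0.62 (adjusted p = 0.044). Leaving out Normal replicate 1 or 3 ended the Acsm3 call (adjusted p = 0.0992 and 0.112), as did leaving out any of the 3 Yap-activated libraries (0.108, 0.0504 and 0.0573).

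Peroxisomal β-oxidation, which shortens very long and branched chains, fell at 11 of 17 genes and rose at 1, with a median of -0.89 on the log2 scale. Ehhadh, the bifunctional enzyme, fell by 1.31 (SE 0.28). Phyh, the phytanoyl-CoA hydroxylase, belongs to α-oxidation but is counted in this list. It fell from 922 ± 175 to 44.0 ± 6.53 CPM (SD, n = 3), and held 922 of the list's 2620 CPM in Normal. Scp2, a thiolase and sterol carrier, fell by 2.26 on the log2 scale. Acaa1b, a thiolase, rose from 1.11 to 5.77 CPM.

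Among 15 transcriptional regulators of oxidation genes, 10 fell, 1 rose and 4 did not pass. Esrrg, an estrogen-related nuclear receptor, had 335, 376 and 591 CPM in Normal and 2.24, 2.60 and 2.29 CPM in Yap-activated libraries (log2 fold change -7.51, SE 0.29, adjusted p = 1.4e-06). Its relative Esrrb fell by 6.41, while Esrra was at -0.18 (adjusted p = 0.139) and, with library totals alone and relative to the reference list, at 0.31 and 0.33 and called higher. Ppara, the fatty acid sensing receptor, went from 5.71, 6.34 and 8.57 CPM to 0.203, 0.119 and 0.186 CPM. Klf15, a factor known for branched-chain amino acid genes in muscle, fell by 5.14 (SE 0.16). The coactivators Ppargc1a and Ppargc1b were at -2.90 and -2.28, the partner receptor Rxra at -1.52 and Perm1 at -1.31, all past the threshold.

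Other regulators depended on the scaling. Ppard, Gabpa and Pparg were at 0.04, -0.00 and 0.87 on the log2 scale and did not pass, and Pparg was uneven among Yap-activated libraries, at 40.7, 152 and 128 CPM. Pparg passed when the first of these was left out, at 1.27 (adjusted p = 4.24e-04), and at 1.37 and 1.38 with library totals alone and relative to the reference list. In those 2 settings Ppard (0.53 and 0.56) and Gabpa (0.49 and 0.51) were called higher as well. Tfam, of mitochondrial DNA upkeep, and Rxrb were at -0.36 and -0.27 and called lower, but were at 0.14 and 0.23 with library totals alone, and at 0.15 and 0.25 relative to the reference list. The Rxrb call was also lost with upper quartile scaling, with the replicate block and without any single library. Nrf1, a nuclear respiratory factor, rose by 0.57.

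Of 7 tested PPAR target genes outside oxidation, 4 rose, 1 fell and 2 did not pass. The 11 listed genes summed to 948 ± 85.6 CPM in Normal and 791 ± 335 CPM in Yap-activated libraries (SD, n = 3). Most of the Normal sum was Ucp2, at 906 ± 86.8 CPM in Normal and 242 ± 24.4 CPM in Yap-activated libraries. The sum therefore does not show the rises of the other genes. Vnn1, a pantetheinase, had 3.64, 4.21 and 2.78 CPM in Normal and 536, 181 and 224 CPM in Yap-activated libraries. Angptl4, a lipase inhibitor, rose by 3.92 on the log2 scale, and Plin2, a lipid droplet coat protein named after its values were seen, rose by 3.36, while Ucp2, an inner-membrane carrier, fell by 1.91. The difference between this list and the oxidation genes was not tested.

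**Figure D5:**
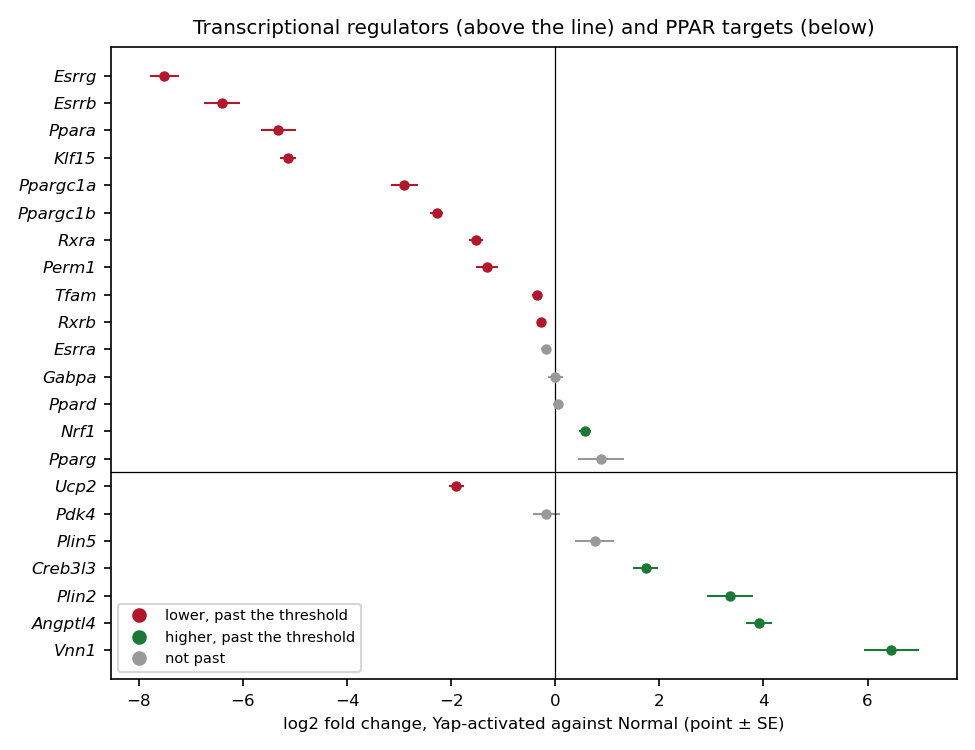
Log2 fold change of 15 transcriptional regulators (above the line) and 7 tested PPAR target genes (below it) in Yap-activated against Normal libraries (x axis; points with SE), coloured by direction past the threshold. Esrrg (-7.51) and Esrrb (-6.41) are the lowest and Vnn1 (6.46) the highest; Tfam, Rxrb and Esrra lie above 0 with library totals alone or relative to the mitochondrial reference list.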

How the data were processed

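The authors deposited raw counts for each gene symbol in 6 libraries, with no scaling. A strand-marking mRNA kit and paired 50 bp reads were used, per the labels' protocols. GRCm38 and mm10 appear as builds in the submitters' processing notes, beside STAR 2.4.2a and DESeq2. The sources used here do not say how reads were assigned to genes by strand or with several matches, and reads of overlapping or near-identical genes can sit in a count. Totals ran from 25580734 to 48440033 counts.

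The tests were run with edgeR 4.0.16 under R 4.3.3. The filterByExpr rule (minimum count 10) left 14600 genes and all 37 studied. Libraries were scaled by TMM and tested with the robust quasi-likelihood F-test over all 6 libraries, with Benjamini-Hochberg adjustment over all genes and a threshold of 0.05. Each SE is the absolute log2 fold change over the square root of F. Alternatives were other scalings, filters, dispersions, DESeq2 1.42.0, limma voom (limma 3.58.1), a 2-fold null, a replicate block and leaving out each library. One scaling set libraries to the summed counts of the mitochondrial reference list.

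Coordinates and mRNA lengths (longest principal protein-coding transcript) are from GENCODE mouse release 21 on GRCm38, where all 37 symbols matched; promoter windows are from RefSeq on GRCm38.p6. The genes, lists and tests were chosen with earlier results of these data known. Every member was named, every tested regulator, in each other list the 2 genes with the smallest p in each direction and the one with the highest mean CPM, and 9 counterpart genes, of which 3 are not reported here; others are marked in the text.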

Additional observations from a re-analysis of the deposited data

How the results depend on the processing

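Among 18 alternatives, 27 to 35 of the 37 genes were called lower and 0 to 2 higher; the lower end is the test against a 2-fold change, under which 8 of 18 fatty acid genes passed. Leaving out any 1 library left all 37 calls and directions as they were. The median log2 fold change ran from -3.05 to -2.45 for branched-chain, from -2.90 to -2.25 for ketone and from -1.37 to -0.80 for fatty acid genes. With library totals alone the median of all genes rose by 0.49 and higher calls made up 76.6% of all calls, where TMM gave 50.0%; relative to the mitochondrial reference list it rose by 0.51 and they made up 77.2%. In each of these settings 2 of the 37 genes were called higher.

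These settings shift every value upward, and some signs turned. With library totals alone and relative to the reference list, log2 fold changes were 0.42 and 0.44 for Slc25a20, 0.0071 and 0.0215 for Acads, 0.43 and 0.45 for Eci2, 0.25 and 0.27 for Bcat1, 0.31 and 0.33 for Esrra, 0.49 and 0.51 for Gabpa, 0.23 and 0.25 for Rxrb, 0.14 and 0.15 for Tfam, 0.28 and 0.30 for Vdac2, and 0.47 and 0.48 for both Slc16a1 and Thyn1. Values near 0 also turned elsewhere, and the cause was not tested. Gabpa was at 0.0107 with DESeq2 size factors, 0.0108 with DESeq2's test, 0.0068 with the filter of 1 CPM, 0.0065 with voom, 0.0494 with upper quartile, 0.0037 without the 50 most abundant genes and 0.0014 with the replicate block. With upper quartile Slc16a1 and Thyn1 were both at 0.0232. Leaving out 1 library each time gave -0.116 to 0.104 for Gabpa, -0.135 to 0.0745 for Slc16a1, -0.118 to 0.0428 for Thyn1 and -0.0054 to 0.0985 for Ppard.

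With the replicate block 35 genes were lower, and 8561 of all genes were called against 8682 without it. Deviations of libraries with the same number correlated at 0.0739, 0.0382 and 0.0799, and each of the 6 libraries correlated best with its own number. What level a true pairing would give was not determined, so these values cannot settle whether the numbers are a pairing. With 3 libraries a group, a small difference at Slc25a20 or Eci2 may have been missed.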
